A study of Homo sapiens with 6 samples.

Results

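The 35 genes described here encode proteins of the centromere and the kinetochore. They were chosen by name from the 35474 genes listed in the deposited count table, and all 35 were present and passed the filter on low counts. The RNA came from A549, a human lung adenocarcinoma cell line, 48 h after transfection. There were 3 cultures that received an siRNA against BAP18 (siBAP18) and 3 that received a non-specific siRNA (siCtrl), and all 6 went through transfection. BAP18 is a small chromatin protein that associates with the BPTF-containing remodeling complex NURF and with MLL methyltransferase complexes. The sources used here do not state which of the study's 3 BAP18 siRNAs the sequenced cultures received, so the groups stand for 1 line and an unnamed siRNA.

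The centromere is the chromosomal site where the kinetochore is built, and it is marked by nucleosomes that carry the histone H3 variant CENP-A. On this chromatin sits the constitutive centromere-associated network (CCAN), which recruits the KMN network, made of KNL1, the MIS12 complex and the NDC80 complex, in mitosis. NDC80 binds spindle microtubules together with the SKA complex, the outer corona captures microtubules and carries checkpoint proteins, and the chromosomal passenger complex corrects faulty attachments. Many of these genes are transcribed periodically, with most of their mRNA made late in the cell cycle, and their promoters are known targets of the DREAM, B-MYB and FOXM1 factors.

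Knockdown was first checked in the targeted gene. BAP18 is listed as C17orf49, and siCtrl cells gave 743, 751 and 705 counts where siBAP18 cells gave 120, 137 and 108. The log2 fold change was −2.65 (standard error 0.111, edgeR adjusted p = 7.31e-16). Libraries held 46035635 to 53657450 counts in siCtrl and 42094524 to 56548620 in siBAP18. Single kinetochore genes had 32 to 10041 counts per library, so the counting error of the lowest of them was the largest. Levels in CPM are counts scaled to the TMM-adjusted library total. The epithelial markers EPCAM, KRT8, KRT18, KRT19 and CDH1 summed to 18930 to 20450 CPM in siCtrl and 14070 to 17520 CPM in siBAP18, all 5 of 5 passing the filter. Marker sums in CPM were 11.7 to 12.9 against 8.76 to 10.3 for fibroblasts, with 1 of 5 markers passing the filter. They were 1.16 to 1.66 against 0.956 to 1.26 for leukocytes, with 1 of 5 passing, and 1.03 to 1.19 against 0.890 to 1.14 for endothelium, with 2 of 5 passing. KDR was at 0 in all siCtrl libraries and TEK at 0 in all siBAP18 libraries. DCN, PTPRC and CD3E were not listed under these names among the deposited genes, so they did not reach the filter. Mitochondrial genes took 6.86% to 7.43% of the counts in siCtrl and 5.27% to 6.14% in siBAP18. The groups did not overlap in the epithelial, fibroblast and mitochondrial values and overlapped in the leukocyte and endothelial sums. Within the epithelial list, whose sum is mostly KRT8 and KRT18, CDH1 fell by 1.32 (edgeR adjusted p = 3.8e-14). EPCAM, KRT8 and KRT18 fell by less, and KRT19, at 0.15, did not pass. Within the endothelial list PECAM1 fell by 1.53 (edgeR adjusted p = 0.00123) and CDH5 rose by 1.10 (edgeR adjusted p = 0.0148), both from under 1 CPM. The part of these values in the results was not tested.

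Most of the kinetochore genes had less mRNA in siBAP18 cells. The quasi-likelihood test of edgeR, adjusted by Benjamini and Hochberg's method over 20776 genes, called 49.6% of all genes in either direction at an adjusted p under 0.05 and 8.46% with a log2 fold change also past 1 in size. At an adjusted p under 0.05, 25 of the 35 members fell, against 25.1% of all genes tested. Only CENPL and MIS12 rose, where 24.5% of all genes did, and CENPA, MIS18A, CENPO, CENPW, PMF1, SKA1, SKA2 and BIRC5 did not pass. The fall exceeded 1 on the log2 scale in 9 genes, CENPK, CENPQ, CENPE, KNTC1, ZWILCH, SKA3, CENPI, CENPU and NUF2, against 3.74% of all genes. No member rose by more than 1, where 4.72% of all genes did. In 29 members all 3 siBAP18 libraries lay below all 3 siCtrl libraries, against 29.0% of all genes, and in 2 they lay above, against 27.6%. The median log2 fold change was −0.73 over the members, from −1.74 to 0.71, and 0.001 over all genes tested. When GC content and gene length were entered as offsets, 27 members fell and 3 rose, against 26.9% and 27.7% of the 16463 genes in that fit. Past −1 in it were CENPK, CENPQ and OIP5, against 3.17% of its genes. Limma on log2(RPKM + 1), a scale that shortens the changes of low genes, left 2 falls past 1, CENPK and CENPQ, among the 34 members it held, where 0.807% of its genes were past −1. CENPI was under its RPKM minimum. In bulk RNA, fewer cells in the phase that expresses these genes and less mRNA per cell cannot be told apart.

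**Figure D1:**
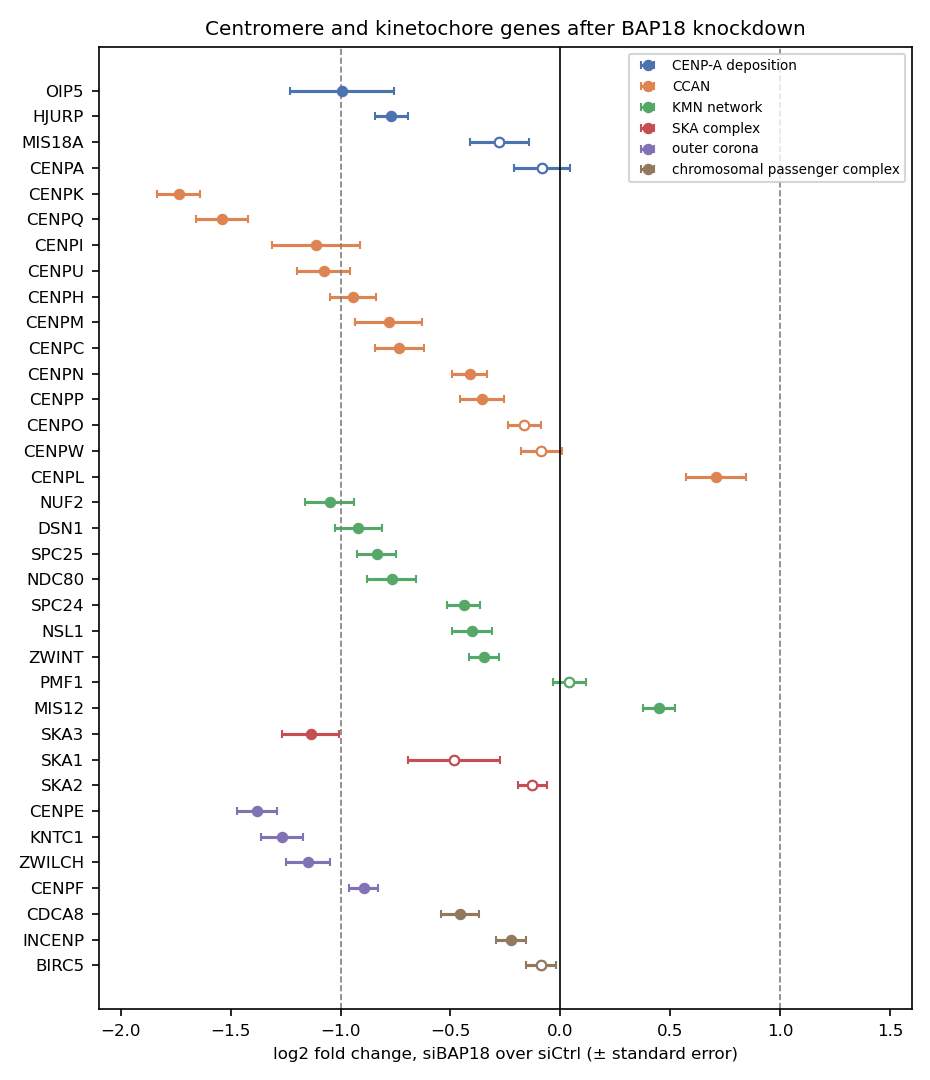
Log2 fold change of each of the 35 genes, siBAP18 over siCtrl, on the horizontal axis, with bars of 1 standard error and colours for the 6 functional groups. Open circles mark the 8 genes at an adjusted p of 0.05 or more and dashed lines mark −1 and 1. The 9 genes left of −1 include 4 of the CCAN and 3 of the outer corona.

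The fall was present in every siBAP18 library. Against the mean of the siCtrl libraries, the median member stood at −0.66, −0.69 and −0.57 on the log2 scale in siBAP18 replicates 1, 2 and 3. The 35 genes together summed to 985.2 to 1023 CPM in siCtrl and 728.4 to 739.8 CPM in siBAP18. This sum is dominated by its most abundant members, INCENP, CENPF and HJURP. Replicate 3 was the lowest of the siBAP18 libraries in 17 of the 35 genes and replicates 1 and 2 in 11 and 7, where over all genes the shares were 39.5% for replicate 3 and 25.1% and 35.4% for replicates 1 and 2. Without siBAP18 replicate 3, 27 members fell and 9 fell past 1.

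**Figure D2:**
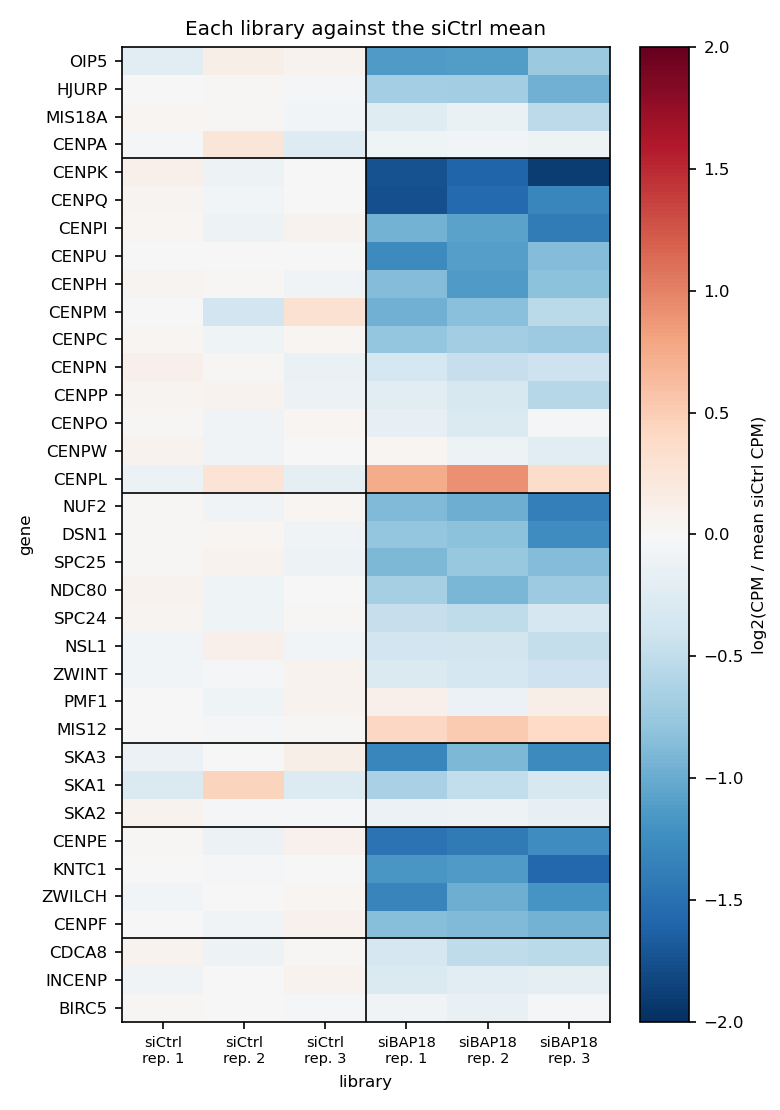
Heat map of log2(CPM over the mean siCtrl CPM) for the 35 genes in rows, ordered by group and fold change, and the 6 libraries in columns. Blue is below and red above the siCtrl mean. The 3 siBAP18 columns are blue in most rows and red in CENPL and MIS12.

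The genes that place CENP-A at the centromere did not move alike. CENPA itself stood at 4.87, 5.89 and 4.15 CPM in siCtrl and at 4.69, 4.76 and 4.61 CPM in siBAP18. The siBAP18 values lay inside the siCtrl range, and the log2 fold change of −0.08 (standard error 0.129, edgeR adjusted p = 0.624) changed sign, to 0.05, without siCtrl replicate 2. HJURP, the chaperone that brings new CENP-A to the centromere, stood at 84.2, 85.6 and 82.8 CPM in siCtrl and at 52.4, 52.3 and 43.3 CPM in siBAP18. Its groups were well apart and it fell by 0.77 on the log2 scale (standard error 0.0742, edgeR adjusted p = 3.87e-09). The MIS18 complex licenses this loading. Its subunit OIP5 (Mis18β) went from 1.48 ± 0.180 to 0.751 ± 0.119 CPM (SD, n = 3) and fell by 0.99 (standard error 0.235, edgeR adjusted p = 9.95e-04), and by more than 1 without siCtrl replicate 1 or without siBAP18 replicate 3. OIP5 is counted with uncertainty, because 38.0% of its exon bases also lie in exons of OIP5-AS1 on the other strand, which stood at 43.1 ± 2.42 CPM in siCtrl. OIP5-AS1 also fell, by 0.76 (standard error 0.0778, edgeR adjusted p = 1.00e-08), to 25.4 ± 2.53 CPM in siBAP18 (SD, n = 3). The part of OIP5-AS1 reads in the fall of OIP5 was not tested. The other subunit, MIS18A, went from 4.13 ± 0.155 to 3.39 ± 0.453 CPM (SD, n = 3), with a log2 fold change of −0.28 (standard error 0.135, edgeR adjusted p = 0.0919). Without siBAP18 replicate 2 that difference passed the test (edgeR adjusted p = 0.0445).

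Promoter sequence was read from RefSeq windows on GRCh38.p14 that run from 250 bases before to 50 after each start, which were held for 29 of the 35 genes. The windows of 5 genes are printed below as examples, on the strand of the gene. CENPA and HJURP hold all of the motifs searched and differed in response, CENPK fell most, and OIP5 and SKA2 each start close to an oppositely oriented gene. Capitals mark the CHR element TTTGAA, the NF-Y box CCAAT and the E2F word GCGGGAA, with the variants spelled GCGCGAA and, in some promoters, GCGCCAA, each read on both strands.
CENPA promoter window, chr2:26785806-26786105, + strand: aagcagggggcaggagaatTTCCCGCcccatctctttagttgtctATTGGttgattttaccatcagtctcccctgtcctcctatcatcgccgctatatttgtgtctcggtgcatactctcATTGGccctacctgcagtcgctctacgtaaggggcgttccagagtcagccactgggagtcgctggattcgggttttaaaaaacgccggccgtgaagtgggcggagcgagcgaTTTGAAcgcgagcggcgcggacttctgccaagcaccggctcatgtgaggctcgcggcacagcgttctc
HJURP promoter window, chr2:233854486-233854785, - strand: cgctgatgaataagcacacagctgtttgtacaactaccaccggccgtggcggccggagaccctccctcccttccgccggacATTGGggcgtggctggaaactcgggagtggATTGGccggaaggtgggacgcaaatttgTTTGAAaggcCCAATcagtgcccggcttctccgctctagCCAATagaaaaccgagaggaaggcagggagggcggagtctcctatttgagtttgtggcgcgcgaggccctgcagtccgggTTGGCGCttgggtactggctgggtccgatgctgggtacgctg
CENPK promoter window, chr5:65563119-65563418, - strand: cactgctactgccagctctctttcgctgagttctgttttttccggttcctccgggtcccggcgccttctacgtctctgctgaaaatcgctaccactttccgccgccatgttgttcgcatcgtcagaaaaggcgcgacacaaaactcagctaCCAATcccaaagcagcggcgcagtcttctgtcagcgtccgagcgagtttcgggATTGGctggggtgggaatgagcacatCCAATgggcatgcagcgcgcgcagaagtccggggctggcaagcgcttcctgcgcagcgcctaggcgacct
OIP5 promoter window, chr15:41332542-41332841, - strand: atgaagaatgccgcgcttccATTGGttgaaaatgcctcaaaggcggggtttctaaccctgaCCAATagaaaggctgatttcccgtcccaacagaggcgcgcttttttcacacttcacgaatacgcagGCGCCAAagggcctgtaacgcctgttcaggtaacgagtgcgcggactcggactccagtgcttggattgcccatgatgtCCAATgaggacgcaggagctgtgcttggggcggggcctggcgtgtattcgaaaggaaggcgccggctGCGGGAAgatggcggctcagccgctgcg
SKA2 promoter window, chr17:59155137-59155436, - strand: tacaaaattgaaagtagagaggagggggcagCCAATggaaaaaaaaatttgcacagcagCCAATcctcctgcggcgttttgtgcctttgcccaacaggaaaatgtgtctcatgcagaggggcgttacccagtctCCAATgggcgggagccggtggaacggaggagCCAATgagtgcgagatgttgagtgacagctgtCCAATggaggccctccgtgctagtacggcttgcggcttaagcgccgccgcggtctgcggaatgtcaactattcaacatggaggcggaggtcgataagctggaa

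CENPA and HJURP shared the kinds of motif they held. CENPA held TTTGAA 18 bases before its start, 2 NF-Y boxes and an E2F word. HJURP held TTTGAA 111 bases before its start, 4 NF-Y boxes and an E2F word 8 bases after the start. The OIP5 window held 3 NF-Y boxes and 2 E2F words. The CENPK window held 3 NF-Y boxes, the SKA2 window held 5, and neither held TTTGAA or an E2F word.

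Within the CCAN, 9 of 12 members fell, 1 rose and 2 did not pass, with a median of −0.76. Among all genes tested, 25.1% fell and 24.5% rose. The widest change of all 35 genes was in CENPK, a subunit of the CENP-H-I-K-M module that links the inner network to the outer kinetochore. CENPK (chr5:65517766-65563171, − strand) stood at 19.9, 17.4 and 18.6 CPM in siCtrl and at 5.57, 6.13 and 4.98 CPM in siBAP18. By the fitted fold change siBAP18 stood at 30.0% of siCtrl, and the highest siBAP18 library was far below the lowest siCtrl library. It fell by 1.74 on the log2 scale (standard error 0.0961, edgeR adjusted p = 1.62e-13), and by 1.30 with GC and length offsets. All 4 members of the module fell, with a median of −1.03. CENPI, another subunit of the module, stood at 2.14, 1.94 and 2.18 CPM in siCtrl and at 1.08, 0.993 and 0.789 CPM in siBAP18, and fell by 1.11 (standard error 0.202, edgeR adjusted p = 5.60e-05). CENPH fell by 0.94 (standard error 0.104, edgeR adjusted p = 3.43e-08), from 11.1 ± 0.491 to 5.78 ± 0.653 CPM (SD, n = 3). CENPM, an adaptor with a small-GTPase fold, fell by 0.78 (standard error 0.152, edgeR adjusted p = 1.29e-04). Its siCtrl values were the most scattered of the module, at 5.90, 4.56 and 7.38 CPM, against 3.05, 3.32 and 4.09 CPM in siBAP18.

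The CENP-O-P-Q-U module, which binds CENP-H-I-K-M and carries a docking site for Polo-like kinase 1 in CENP-U, split in size. CENPQ (chr6:49463378-49493107, + strand) stood at 9.87, 9.18 and 9.52 CPM in siCtrl and at 2.81, 3.25 and 3.85 CPM in siBAP18. The groups did not overlap and CENPQ fell by 1.54 (standard error 0.119, edgeR adjusted p = 7.14e-11). CENPU stood at 7.63, 7.53 and 7.55 CPM in siCtrl and at 3.14, 3.53 and 4.17 CPM in siBAP18. It fell by 1.08 (standard error 0.120, edgeR adjusted p = 4.26e-08), and by 0.98 without siBAP18 replicate 1. Their partners moved less. CENPP fell by 0.36 (standard error 0.1001, edgeR adjusted p = 0.00446), a call that limma on log2(RPKM + 1) did not make (adjusted p = 0.0764). CENPO stood at 41.3 ± 1.67 and 36.9 ± 3.34 CPM (SD, n = 3), a log2 fold change of −0.16 (standard error 0.0745, edgeR adjusted p = 0.0713). The difference in CENPO passed without siBAP18 replicate 3 (edgeR adjusted p = 0.00339) with the replicate number as a block (edgeR adjusted p = 0.0324) and with GC and length offsets, at −0.27 (edgeR adjusted p = 3.89e-04). Exon bases shared with genes on the other strand made up 38.0% of CENPP, with IPPK, and 27.0% of CENPO, with ADCY3.

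CENP-C, which bridges CENP-A nucleosomes and the MIS12 complex, is encoded by CENPC. It went from 6.66 ± 0.309 to 4.01 ± 0.125 CPM (SD, n = 3) and fell by 0.73 (standard error 0.113, edgeR adjusted p = 6.85e-06). The fall of CENPC was 0.37 with GC and length offsets (edgeR adjusted p = 0.00517) and 0.27 with limma on log2(RPKM + 1). CENPL and CENPN encode a heterodimer whose CENP-N subunit reads the CENP-A nucleosome, and they moved in opposite directions. CENPL stood at 4.49, 5.89 and 4.28 CPM in siCtrl and at 8.20, 9.25 and 6.32 CPM in siBAP18. Its lowest siBAP18 library was only slightly above its highest siCtrl library, and it rose by 0.71 (standard error 0.135, edgeR adjusted p = 1.04e-04). CENPN went from 21.5 ± 1.69 to 16.2 ± 0.589 CPM (SD, n = 3) and fell by 0.41 (standard error 0.0799, edgeR adjusted p = 1.21e-04). CENPW, the histone-fold partner of CENP-T, stood at 10.5 ± 0.531 and 9.86 ± 0.873 CPM (SD, n = 3) with overlapping groups, a log2 fold change of −0.09 (standard error 0.0941, edgeR adjusted p = 0.474). With GC and length offsets its value was 0.13.

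**Figure D3:**
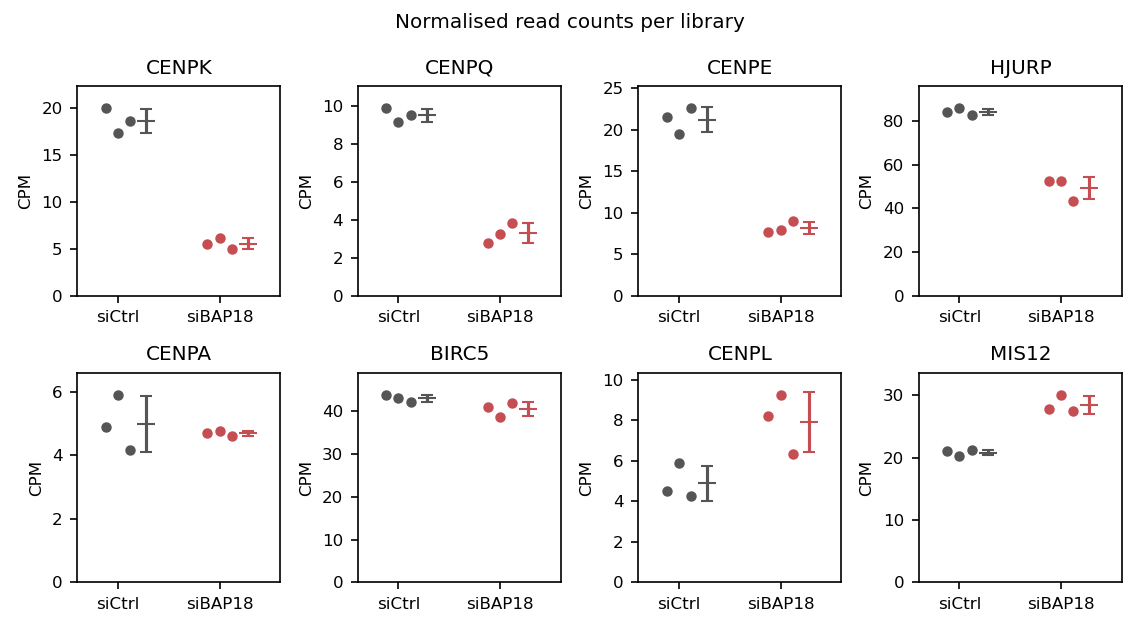
CPM in each library for 8 of the genes, with each panel's vertical axis starting at 0. Dots are libraries, siCtrl in grey and siBAP18 in red, and the bar beside them gives the mean ± SD of 3 libraries. CENPK, CENPQ, CENPE and HJURP show separate groups with siBAP18 lower, CENPL and MIS12 show siBAP18 higher, the CENPA groups overlap, and BIRC5 differs by 0.09 on the log2 scale.

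In the KMN network, 7 of 9 members fell, 1 rose and 1 did not pass, against 25.1% and 24.5% of all genes that fell and rose. The median of the network was −0.44. All 4 subunits of the NDC80 complex, the rod that grips the microtubule, fell, with a median of −0.80. NUF2, the partner of NDC80 at the microtubule-binding end, stood at 11.3, 10.5 and 11.4 CPM in siCtrl and at 5.95, 5.62 and 4.29 CPM in siBAP18. It fell by 1.05 (standard error 0.111, edgeR adjusted p = 1.83e-08), and by 0.93 without siBAP18 replicate 3. NDC80 fell by 0.77 (standard error 0.111, edgeR adjusted p = 2.61e-06), from 7.84 ± 0.395 to 4.62 ± 0.413 CPM (SD, n = 3). At the inner end of the rod, SPC25 fell by 0.84 (standard error 0.0884, edgeR adjusted p = 1.82e-08) and SPC24 by 0.44 (standard error 0.0739, edgeR adjusted p = 2.03e-05). SPC24 went from 34.4 ± 1.79 to 25.4 ± 1.59 CPM and SPC25 from 15.4 ± 0.941 to 8.61 ± 0.423 CPM (SD, n = 3).

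The MIS12 complex, which joins the CCAN to NDC80 and KNL1, was mixed. DSN1, the subunit through which Aurora B controls binding to CENP-C, stood at 12.3, 12.4 and 11.6 CPM in siCtrl and at 7.04, 6.87 and 5.13 CPM in siBAP18. It fell by 0.92 (standard error 0.107, edgeR adjusted p = 9.43e-08). NSL1 fell by 0.40 (standard error 0.0911, edgeR adjusted p = 6.75e-04), but by only 0.10 with GC and length offsets (edgeR adjusted p = 0.33). MIS12 stood at 21.02, 20.3 and 21.1 CPM in siCtrl and at 27.9, 30.0 and 27.4 CPM in siBAP18. Every siBAP18 library was above every siCtrl library and MIS12 rose by 0.45 (standard error 0.0728, edgeR adjusted p = 1.19e-05). PMF1 stood at 52.1, 48.8 and 54.0 CPM in siCtrl and at 55.6, 47.5 and 56.3 CPM in siBAP18, with overlapping groups and a log2 fold change of 0.04 (standard error 0.0745, edgeR adjusted p = 0.687). Its sign turned without siCtrl replicate 2 and without siBAP18 replicate 3, and with GC and length offsets PMF1 was lower, at −0.13 (edgeR adjusted p = 0.0390). PMF1 is also uncertain because the read-through gene PMF1-BGLAP, at 50.2 ± 2.92 CPM in siCtrl (SD, n = 3), covers 23.3% of its exon bases on the same strand. ZWINT, a partner of KNL1, fell by 0.35 (standard error 0.0684, edgeR adjusted p = 1.36e-04), from 59.4 ± 2.64 to 46.6 ± 1.98 CPM (SD, n = 3).

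Of the SKA complex, which follows depolymerizing microtubule ends, SKA3 fell and the other two subunits did not pass. SKA3 stood at 6.13, 6.62 and 7.27 CPM in siCtrl and at 2.70, 3.58 and 2.76 CPM in siBAP18. Its groups did not overlap and it fell by 1.14 (standard error 0.132, edgeR adjusted p = 8.18e-08). SKA1 stood at 1.66, 2.75 and 1.67 CPM in siCtrl and at 1.29, 1.44 and 1.63 CPM in siBAP18. The groups of SKA1 did not overlap, but siCtrl replicate 2 lay far above the other siCtrl libraries, and the log2 fold change was −0.48 (standard error 0.211, edgeR adjusted p = 0.0601). Without siCtrl replicate 1, siCtrl replicate 3 or siBAP18 replicate 3, the adjusted p of SKA1 was 0.0307, 0.0342 and 0.0393 by edgeR. SKA2 stood at 49.3 ± 1.98 and 45.2 ± 1.02 CPM (SD, n = 3), with a log2 fold change of −0.13 (standard error 0.0674, edgeR adjusted p = 0.123). With GC and length offsets SKA2 was at 0.17 (edgeR adjusted p = 0.00624), the opposite direction.

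The outer corona was the group with the lowest median, at −1.21, and all 4 of its members fell, against 25.1% of all genes tested. With GC and length offsets CENPE was at −0.93, KNTC1 at −0.95, ZWILCH at −0.82 and CENPF at −0.58. CENPE, a kinesin that moves chromosomes along microtubules, stood at 21.6, 19.5 and 22.6 CPM in siCtrl and at 7.65, 7.93 and 8.98 CPM in siBAP18. By the fitted fold change CENPE (chr4:103105806-103198409, − strand) stood in siBAP18 at 38.4% of siCtrl, and the gene fell by 1.38 (standard error 0.0892, edgeR adjusted p = 3.02e-12). KNTC1 and ZWILCH encode the ROD and Zwilch subunits of the RZZ complex, the scaffold of the corona. KNTC1 stood at 19.7, 19.2 and 19.6 CPM in siCtrl and at 8.67, 8.90 and 6.56 CPM in siBAP18. It fell by 1.27 (standard error 0.0969, edgeR adjusted p = 6.26e-11), and siBAP18 replicate 3 was its lowest library. ZWILCH stood at 13.5, 14.0 and 14.5 CPM in siCtrl and at 5.62, 7.12 and 6.17 CPM in siBAP18. It fell by 1.15 (standard error 0.0986, edgeR adjusted p = 5.09e-10). CENPF, a large coiled-coil protein that also sits at the nuclear envelope before mitosis, went from 161.7 ± 8.69 to 87.0 ± 2.66 CPM (SD, n = 3) and fell by 0.89 (standard error 0.0670, edgeR adjusted p = 4.35e-11).

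The chromosomal passenger complex, which targets the kinase Aurora B to the inner centromere, changed least, with a median of −0.22. With GC and length offsets CDCA8 was at −0.61 and INCENP at −0.35. CDCA8 (Borealin) fell by 0.46 (standard error 0.0857, edgeR adjusted p = 8.02e-05), from 16.96 ± 1.09 to 12.3 ± 0.947 CPM (SD, n = 3). INCENP, the scaffold, stood at 188.8, 199.0 and 207.7 CPM in siCtrl and at 163.2, 171.7 and 174.8 CPM in siBAP18. It fell by 0.22 (standard error 0.0662, edgeR adjusted p = 0.00632), and did not pass without siCtrl replicate 3 (edgeR adjusted p = 0.0631) or without siBAP18 replicate 1 (edgeR adjusted p = 0.0521). BIRC5 (Survivin) stood at 43.8, 43.1 and 42.1 CPM in siCtrl and at 40.9, 38.6 and 42.0 CPM in siBAP18. The groups of BIRC5 were separate by a narrow margin, and its log2 fold change of −0.09 did not pass (standard error 0.0681, edgeR adjusted p = 0.306), though with GC and length offsets it was −0.21 (edgeR adjusted p = 0.00112).

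Levels of different genes were compared as RPKM, that is, counts scaled by gene length and by the total of the library. In siCtrl, INCENP was the highest of the 35 at 44.3 ± 2.20 RPKM (SD, n = 3), followed by ZWINT at 24.9 ± 1.06, HJURP at 22.0 ± 0.578 and PMF1 at 20.4 ± 0.855. CENPI was the lowest, at 0.482 ± 0.0258 RPKM. Subunits that act in 1 complex had unequal levels. In the NDC80 complex, SPC24 was at 12.1 ± 0.507 and SPC25 at 8.35 ± 0.580 RPKM, above NUF2 at 3.27 ± 0.111 and NDC80 at 2.17 ± 0.0880, and no neighbours in this order overlapped within their SD. In the MIS12 complex the order was PMF1, MIS12 at 6.58 ± 0.0804, DSN1 at 4.40 ± 0.197 and NSL1 at 2.87 ± 0.212 RPKM. After knockdown MIS12 was at 9.03 ± 0.741 and DSN1 at 2.33 ± 0.453 RPKM, so DSN1 and NSL1, at 2.18 ± 0.161, no longer differed beyond their spread. SKA2, at 15.6 ± 0.560 RPKM in siCtrl, was far above SKA3 at 2.19 ± 0.188 and SKA1 at 0.687 ± 0.222.

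Most other genes of the same structure also fell. Of 21 further centromere, kinetochore and attachment-checkpoint genes, 15 fell, 3 rose and CENPT, AURKB and PLK1 did not pass, with a median log2 fold change of −0.59. Over all genes tested, 25.1% fell and 24.5% rose. KNL1, the third arm of the KMN network and listed as CASC5, fell most, by 1.45 (standard error 0.124, edgeR adjusted p = 4.62e-10), from 7.85 ± 0.617 to 2.85 ± 0.342 CPM (SD, n = 3). SGO2, a protector of centromeric cohesion, fell by 1.07 (standard error 0.109, edgeR adjusted p = 1.02e-08). SGO2 was not past −1 with GC and length offsets, a fit that KNL1 did not enter because its listed symbol had no GC value. The genes that rose, named after their values were seen, were ZW10 by 0.93 (standard error 0.103, edgeR adjusted p = 4.03e-08), MAD1L1 by 0.84 (standard error 0.0727, edgeR adjusted p = 6e-10) and CENPB by 0.37 (standard error 0.0787, edgeR adjusted p = 3.37e-04). ZW10 is the partner of ROD and Zwilch in the RZZ complex, so its subunits moved in opposite directions.

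Position in the genome was a feature the choice of genes did not use. A tested gene started within 1000 bases on the opposite strand of 14 members, and of these 14 neighbours 8 fell and 4 rose, with a median of −0.20, where 25.1% of all genes tested fell and 24.5% rose. OIP5 and NUSAP1, a spindle-associated protein gene, started 73 bases apart, and NUSAP1 fell by 1.07 (standard error 0.0754, edgeR adjusted p = 1.35e-11), from 63.6 ± 3.82 to 30.2 ± 2.62 CPM (SD, n = 3). SKA2 and PRR11, a gene active in cell-cycle progression, started 230 bases apart. PRR11 fell by 0.73 (standard error 0.0837, edgeR adjusted p = 6.63e-08), while SKA2 did not pass. The start of CENPK lay 65 bases from that of PPWD1, which fell by 0.23 (standard error 0.0739, edgeR adjusted p = 0.0128). KNTC1 and RSRC2 were 246 bases apart and moved in opposite directions, RSRC2 rising by 0.44 (standard error 0.0656, edgeR adjusted p = 4.65e-06). MIS12 and DERL2 both rose, DERL2 by 0.42 (standard error 0.0741, edgeR adjusted p = 3.87e-05). Exons of DERL2 hold 9.53% of the exon bases of MIS12 on the other strand, so these genes may share reads.

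**Figure D4:**
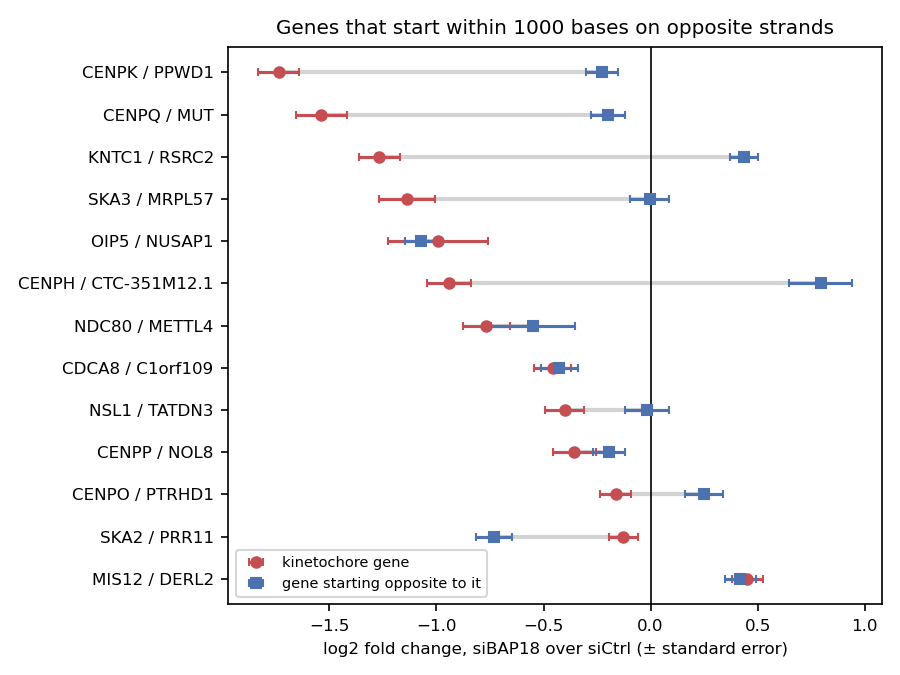
Log2 fold change, siBAP18 over siCtrl, of 13 of the 14 members (red circles) and of the gene that starts within 1000 bases on the opposite strand (blue squares), with bars of 1 standard error and a grey line joining each pair. CENPK and PPWD1 lie far apart, OIP5 and NUSAP1 lie together near −1, and SKA2 lies near 0 while PRR11 is at −0.73.

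Shared exon bases limit a few values, since the strand setting used in counting is not given in the sources used here. Exons of another listed gene overlapped those of 13 members. Beside OIP5, CENPP, CENPO and PMF1, the shared part was 12.8% in CENPN, with CMC2, and 11.7% in CENPU, with PRIMPOL, and below that in the others. ZWILCH shared 3.26% with RPL4, which stood at 2949 ± 78.1 CPM in siCtrl (SD, n = 3), and 7.61% with LCTL, which fell by 1.09 (standard error 0.131, edgeR adjusted p = 1.53e-07). Without a strand setting, reads of ZWILCH and LCTL cannot be told apart there.

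The promoter motifs were more common among the members than among all genes. TTTGAA was in 14 of 29 members with a window (48.3%) and in 18.2% of 27305 genes. CCAAT was in 20 of 29 (69.0%) against 39.7%, and an E2F word in 11 of 29 (37.9%) against 13.1%. GCGCCAA and CCAAT can share bases, as they do in PMF1. All of the motifs were found together in CENPA, HJURP, CENPN, SPC25 and ZWINT, 17.2% of the members and 0.989% of all genes. CENPE, CENPI, DSN1 and NSL1 held none, where 43.9% of all genes held none. The CENPI window (chrX:101100808-101101107) lies downstream of the start listed for the gene (101098218), so it may miss the promoter there. Windows of CENPA, CENPN, CENPO, NUF2, SPC25 and ZWILCH also lay inside the listed span of the gene and not at its start. So did some of the windows of CENPP and MIS12. The only CCAAT match of CENPP was in such a window, at 92600007 in a gene listed from 92325484. Of the 8 genes past −1 with a window, TTTGAA was in 2, NUF2 and SKA3. It was in 9 of the 14 that fell by less and in 3 of the 7 that rose or did not pass. A match is a description of the letters, and these counts carry no test.

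GC content of the transcripts moved with the fold change. Among the 35 genes Pearson's r between GC percent and log2 fold change was 0.449 and Spearman's rho 0.481, across genes that share the same libraries. Across 12426 genes whose mean log2 CPM reached 1, r was 0.302 and rho 0.357. The 9 genes past −1 had a GC content of 32.9% to 41.6%, with CENPK and CENPQ the lowest at 32.9% and 33.9%, against a median of 48.8% over the 12426 genes. At or under the member median of 42.5% GC there were 18 members with a median log2 fold change of −0.996, of which 15 fell. In that range the 3127 genes overall had a median of −0.29, and 56.5% fell. Above it there were 17 members with a median of −0.36, of which 10 fell, against a median of 0.07 over 9299 genes, of which 25.1% fell. The part of GC content in the result was not tested beyond the offsets. The seed match ACTCAAC, bases 2 to 8 of the guide of siBAP18#3 read as its target, was in the 3′ UTR of CENPN, CENPP and CDCA8, and in 7.79% of 13746 genes. Those 3 had a median of −0.41 and none passed −1, and the 32 members without it had a median of −0.77. Seeds of the study's other BAP18 siRNAs were not searched, and the part of seed matches in the result was not tested.

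**Figure D5:**
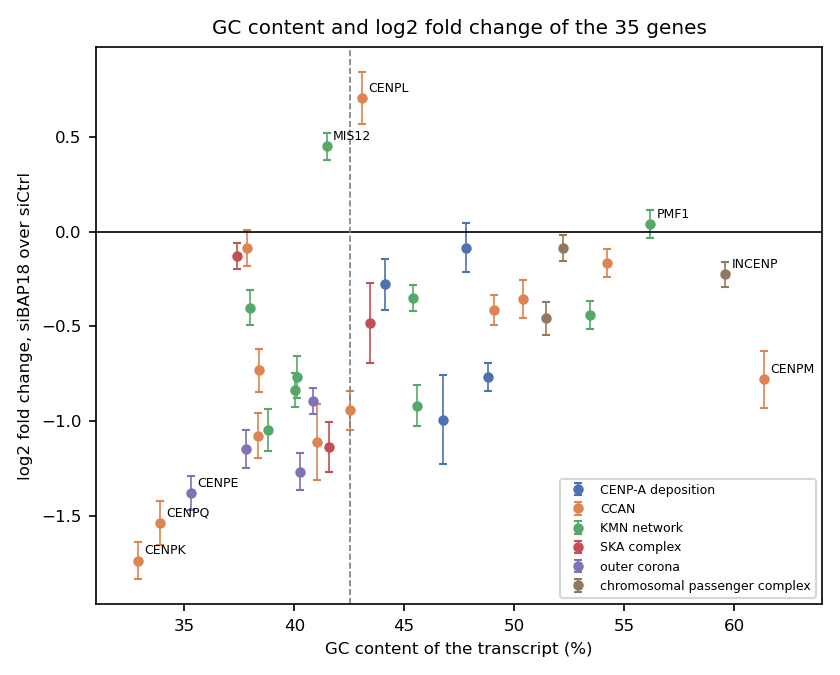
Log2 fold change, siBAP18 over siCtrl, with bars of 1 standard error, against the GC content of the transcript in percent for the 35 genes, coloured by functional group. The dashed line is the member median of 42.5%. CENPK, CENPQ and CENPE lie at the lower left, while CENPM, at 61.4% GC, lies at −0.78.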

How the data were processed

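Poly(A) RNA of 6 cultures was sequenced as paired, strand-marked libraries. The authors deposited whole-number counts per gene, not normalized, and RPKM values; the aligner, the counting program and its strand setting are not given in the sources used here. The labels name the builds hg38 and GRCm38, and the exon positions fit GRCh38. Of counts from 1 to 20, 75.9% were even, against 52.3% of those over 1000, so counts may not be single independent fragments.

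The counts of all genes were filtered with filterByExpr, scaled by TMM and tested with edgeR 4.0.16 in R 4.3.3 (limma 3.58.1 and DESeq2 1.42.0 for alternatives). Each standard error is the size of the log2 fold change over the root of its F statistic. CPM use the TMM-scaled total, and errors are SD over 3 libraries. On simulated data for this comparison with 20776 genes, 200 of 200 changed genes and 11 others were called. The changed genes were drawn from genes above a minimum mean count and given log2 changes of 1 or 2 in size. Smaller changes, the size seen in most called members, were not simulated, so their recovery is not known. Replicate numbers did not pair the libraries (r of −0.017, 0.051 and 0.0038), and no library was a copy of another. The siBAP18 replicates differed more from each other than the siCtrl replicates did. Chi-square per degree of freedom between pairs was 11.3 to 26.2 in siBAP18 and 4.19 to 4.9 in siCtrl. The edgeR fit used the same dispersion per gene for both groups. The labels call the cultures biological replicates. GC content and 3′ UTRs came from GENCODE 29 and promoters from RefSeq, read with Python 3.11.15. The naming rule took all members, the target, further kinetochore genes past both thresholds and neighbouring genes, and some genes of the last 2 kinds are not reported here. Alternatives changed the scaling (DESeq2 size factors, upper quartile, totals), the filter (none, or 10 counts or more per library) or the test (DESeq2 Wald, a replicate block, or limma on log RPKM with a pseudocount of 1 or 0.1 where the mean RPKM reached 0.5), or left out 1 library. The members and gene lists were chosen with earlier results of these data known. The GC and length offsets, on 16463 genes, were chosen after seeing the data.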

Additional observations from a re-analysis of the deposited data

How the results depend on the processing

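Over 35 genes and all alternatives, 538 of 558 refitted values kept their direction and their side of the adjusted p threshold, while 15 lost and 4 gained a place past 1. Members that fell numbered 24 to 27 with each library left out, and those past −1 numbered 8 to 10. With limma on log2(RPKM + 1), all genes past both thresholds were 348 (133 lower, 215 higher), members past −1 were 2 and other kinetochore genes past −1 were 0. With limma on log2(RPKM + 0.1) all genes were 909 (434 lower, 475 higher), and requiring at least 10 counts in every library left 605 higher. With GC and length offsets, 3 members and 0 of the 18 other kinetochore genes with a GC value (KNL1 had none) were past −1, and 1 other kinetochore gene was past 1, a count of 0 to 1 with each library left out and of 1 without siBAP18 replicate 3. With each library left out, CENPA ranged from −0.198 to 0.05 and PMF1 from −0.0026 to 0.116, turning sign without siCtrl replicate 2 and, in PMF1, also without siBAP18 replicate 3 (−0.0011). PMF1 stood at −0.13 (called lower) with GC and length offsets, under which CENPW was at 0.13 and SKA2 at 0.17. The causes were not tested, except that a pseudocount shortens the change of low genes, and that a stricter filter, an RPKM minimum or missing GC values leave fewer genes. With a replicate block, 26 members fell and 9 fell past 1, and over all genes 10803 passed the adjusted p and 1741 both thresholds, so that CENPO was the one member whose call changed. SKA1 also passed without a filter on low counts (adjusted p = 0.0326 by edgeR). Depth limits the lowest genes most, OIP5, CENPI and SKA1.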
